A study of Saccharomyces cerevisiae with 23 samples.

Results

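The genes of the respiratory chain and of the ATP synthase that are encoded in the nucleus were measured in budding yeast before and during hyperosmotic stress. A probe was included where its gene carries the RefSeq standard symbol SDH1 to SDH4, CYT1, CYC1, RIP1, COR1 or NDI1, or a COX, QCR or ATP symbol with a number. COX5B was kept apart as the hypoxic isoform, and COX20 was left out because it lies in the region YDR211W to YDR261C. This gave 51 probes for 51 genes among 6256 gene probes. They comprised the NADH dehydrogenase NDI1, 4 subunits of succinate dehydrogenase, 9 of the cytochrome bc1 complex, cytochrome c (CYC1), 8 subunits and 9 assembly factors of cytochrome c oxidase, and 13 subunits and 6 assembly or expression factors of the ATP synthase. All 51 were well above background on every array.

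The series compared cells in which attachment of SUMO, the small ubiquitin-like modifier, to the corepressor subunits Tup1 or Cyc8 was lost or reduced. All strains came from BY4741 and carried SMT3, the SUMO gene, with a 6His-FLAG tag, together with deletions of TUP1 and CYC8 that were complemented by integrated copies of both genes. Both copies were wild type in the wild-type strain. Tup1K270R carried TUP1 with its SUMO-acceptor lysine changed to arginine, Cyc8-4KtoR carried CYC8 with 4 lysines changed to arginine, and the double mutant carried both mutant copies. In the study's blots under stress, the TUP1 change abolished SUMO on Tup1, and the CYC8 change strongly reduced it on Cyc8. The CYC8 change also lowered SUMO on Tup1. Cells grew in yeast complete medium and were sampled unstressed or after 30 or 60 min in 1.2 M sorbitol, with 2 cultures, A and B, per strain and time. The 2 cultures of a strain came from isolates of independent transformations. The study's methods report a small aneuploid region, YDR211W to YDR261C, in replicate a of Tup1K270R, and genes in it were left out.

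Each 2-colour array set a sample against unstressed wild-type cells of the same letter, and values are log2 ratios of sample over that reference, so 0 is the unstressed wild-type level and 1 is a doubling. There were 22 such arrays in 11 groups of 2, and 1 array set unstressed wild type B against unstressed wild type A. Samples A were in Cy3 and samples B in Cy5, so dye, isolate, reference culture and replicate cannot be told apart, and all ratios of a letter share 1 reference culture. The 30 and 60 min arrays of double mutant B carried labels that exchange the times in some fields, and the titles were followed. TPS2, a trehalose synthesis gene, was at 3.80 on the array titled 30 min (3.46 to 4.15 on the other 7 arrays at 30 min) and at 1.57 on the array titled 60 min (1.75 to 2.90 on the other 7 at 60 min). For unstressed double mutant B some labels put the mutant in the other dye, and the direction given by the title was kept; its array correlated with that of double mutant A at r = 0.46 across 6129 genes, which are not independent replicates. RNA came from whole cultures, so a change in fewer cells and a smaller change in all cells cannot be told apart. Between 95% and 98.5% of spots per array were well above background.

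The complemented genes themselves differed between isolates. The CYC8 probe was 1.26 lower in wild type B than in wild type A. In Tup1K270R, which carries wild-type CYC8, it lay between -1.35 and -1.16 in A and between 0.90 and 1.33 in B. Values of A and B, here and below, are against different wild-type cultures, so a gap between letters in CYC8 includes the 1.26 between those references. The TUP1 probe of Cyc8-4KtoR lay between -0.43 and -0.09 in A and between 0.66 and 1.05 in B. On the array of wild type against wild type, the 51 respiratory genes lay between -0.37 (COX6) and 0.35 (QCR6), with a median of -0.03.

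Electrons enter the yeast chain through NADH dehydrogenases and succinate dehydrogenase, which reduce ubiquinone. They pass through the bc1 complex to cytochrome c and from there to cytochrome c oxidase, which reduces oxygen. The bc1 complex and the oxidase pump protons, and the ATP synthase uses their return to make ATP. Yeast represses most of these genes on glucose and induces them for growth on non-fermentable carbon, largely through the Hap2/3/4/5 activator. Tup1 and Cyc8 form a corepressor that DNA-binding proteins recruit to promoters of glucose-repressed, hypoxic and stress genes, among others.

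After 30 min of sorbitol the chain did not move as 1 block. Transcripts for electron entry and the bc1 complex rose, while CYC1, several oxidase subunits and 7 of 13 ATP synthase subunits fell. In the mean response of the 4 strains, each against its own unstressed level, 23 of 51 genes rose and 16 fell (limma, adjusted p under 0.05 over 6129 probes). Over all probes 40.7% rose and 39.1% fell, so the share of these genes that changed was close to that of the genome. Their median change was 0.08, against 0.01 for all probes, and was -0.03 with each array centred on its median in place of loess. In wild type alone, 22 rose and 12 fell, against 34.7% and 32.7% of all probes (18 and 15 with a position surface also removed). With the log ratios as deposited, which kept a position trend on the slide, 9 rose and 5 fell in wild type. Over all probes 2319 then passed in either direction, in place of 4133.

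NDI1 encodes the internal NADH dehydrogenase, which passes electrons from matrix NADH to ubiquinone without pumping protons. Its log2 ratio lay between -0.19 and 0.16 on the 6 unstressed mutant arrays (median -0.02), between 1.09 and 1.41 on the 8 arrays at 30 min (median 1.19) and between -0.26 and 0.39 on the 8 at 60 min (median 0.08). The 30 min arrays thus did not overlap those of either other time. The mean change at 30 min was 1.23 (SE 0.08, 2.34-fold, adjusted p = 2.95e-09 by limma), and each of the 8 strain and culture pairs rose, by 1.04 to 1.41. By 60 min NDI1 had fallen again by 1.17, to 0.06 above the unstressed level (adjusted p = 0.553).

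All 4 succinate dehydrogenase genes rose at 30 min, by 0.50 to 0.97, where 40.7% of all probes rose. SDH1, the flavoprotein subunit, rose most and SDH2, the iron-sulfur subunit, least. SDH1 was at 0.92 and 1.02 in wild type A and B, 1.02 and 0.91 in Tup1K270R, 1.36 and 1.22 in Cyc8-4KtoR, and 1.25 and 1.30 in the double mutant. Its change was 0.97 (SE 0.08, adjusted p = 2.54e-08). The membrane anchors SDH3 and SDH4 rose by 0.72 and 0.81. All 4 fell between 30 and 60 min, SDH1 by 0.71 and SDH2 by 0.30, but unlike NDI1 they remained 0.20 to 0.42 above the unstressed level at 60 min (4 of 4 past the test).

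Of the 9 bc1 genes, 8 rose at 30 min and none fell, where 40.7% of all probes rose and 39.1% fell. RIP1, the Rieske iron-sulfur protein, was at 0.43 and 0.87 in wild type, 0.42 and 0.39 in Tup1K270R, 0.73 and 0.76 in Cyc8-4KtoR, and 0.82 and 0.87 in the double mutant. It rose by 0.68 (SE 0.07, adjusted p = 3.38e-07). QCR2, QCR7 and QCR8, a core protein and a pair of small subunits, rose by 0.55, 0.53 and 0.51. The exception was QCR6, the acidic hinge protein, at -0.04 (SE 0.14, adjusted p = 0.804). QCR6 also had a wide spread between cultures, with every B array below its A array. CYT1, the catalytic cytochrome c1, rose by 0.34 and then fell by 0.63, to 0.29 below the unstressed level at 60 min. RIP1 was at 0.37 and QCR2 at 0.40 above theirs at that time.

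**Figure D1:**
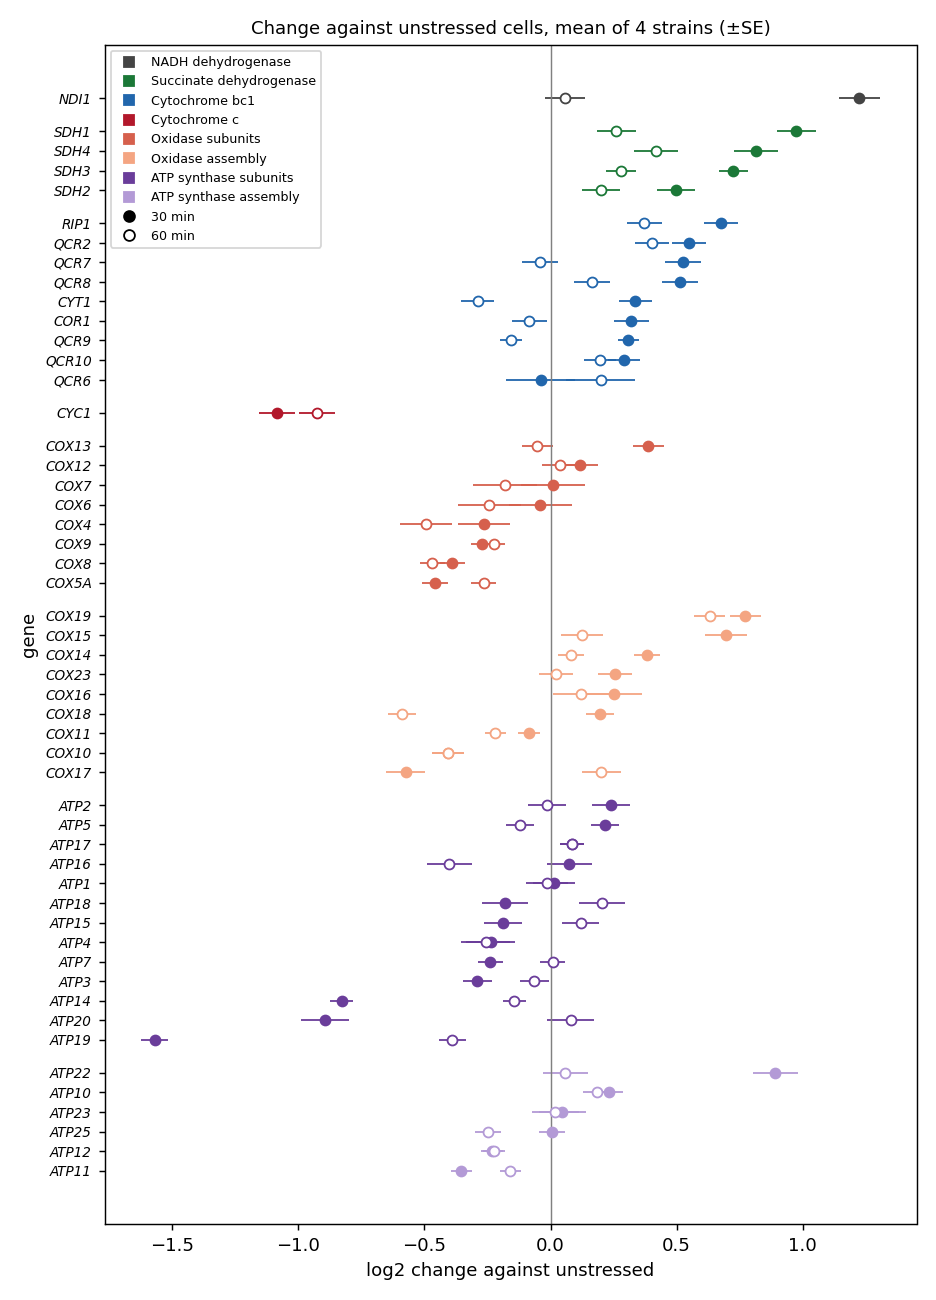
Mean log2 change of the 51 genes over the 4 strains, 30 min and 60 min against unstressed (horizontal axis; points are fitted means and bars 1 SE), with genes grouped by complex on the vertical axis. At 30 min NDI1, the 4 SDH genes and 8 of 9 bc1 genes lie to the right, and CYC1 (-1.08), ATP19 (-1.57), ATP20 (-0.89) and ATP14 (-0.83) to the left.

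CYC1 encodes the main aerobic form of cytochrome c, the carrier between the bc1 complex and the oxidase. At 30 min it was at -0.78 and -0.56 in wild type, -1.56 and -1.21 in Tup1K270R, -0.61 and -0.67 in Cyc8-4KtoR, and -0.43 and -0.30 in the double mutant. All 8 cultures lay below their own unstressed level. The mean change was -1.08 (SE 0.07, adjusted p = 3.45e-09). It stayed low at 60 min, at -0.93 against unstressed, and the change from 30 to 60 min was 0.16 (adjusted p = 0.0755), with 5 of 8 cultures higher and 3 lower.

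Cytochrome c oxidase subunits shifted less. At 30 min 4 of 8 fell and 1 rose, where 39.1% of all probes fell and 40.7% rose. COX5A fell by 0.46, COX8 by 0.39, COX9 by 0.27 and COX4 by 0.26, while COX13 rose by 0.39. COX5A, the aerobic form of subunit V, was at -0.36 and -0.43 in wild type, -0.57 and -0.50 in Tup1K270R, -0.25 and -0.28 in Cyc8-4KtoR, and -0.39 and -0.32 in the double mutant. COX6, COX7 and COX12 were at -0.04, 0.01 and 0.12 and did not pass the test. From 30 to 60 min COX5A rose by 0.19 and COX13 fell by 0.44. COX4, COX5A, COX8 and COX9 remained lower than unstressed at 60 min, by 0.49, 0.27, 0.47 and 0.22.

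The hypoxic partners of CYC1 and COX5A went the other way. CYC7, the hypoxic cytochrome c, was at 1.56 and 1.97 in wild type at 30 min, 2.11 and 0.92 in Tup1K270R, 2.51 and 2.17 in Cyc8-4KtoR, and 2.54 and 1.79 in the double mutant. COX5B, the hypoxic subunit V, lay between 1.57 and 2.35 on the same 8 arrays and between -0.93 and 0.82 on the 6 unstressed mutant arrays. CYC7 rose by 1.87 (SE 0.27, adjusted p = 1.45e-05) and COX5B by 2.08 (SE 0.20, adjusted p = 2.54e-07). Both were lower at 60 than at 30 min, by 1.08 and 0.88, and both still lay above the unstressed level (0.79 and 1.20). In the mean of the 4 strains the aerobic gene of each pair was below and the hypoxic gene above its unstressed level at both times. Both hypoxic genes also differed between unstressed wild type B and A, by 0.45 (CYC7) and 0.69 (COX5B).

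**Figure D2:**
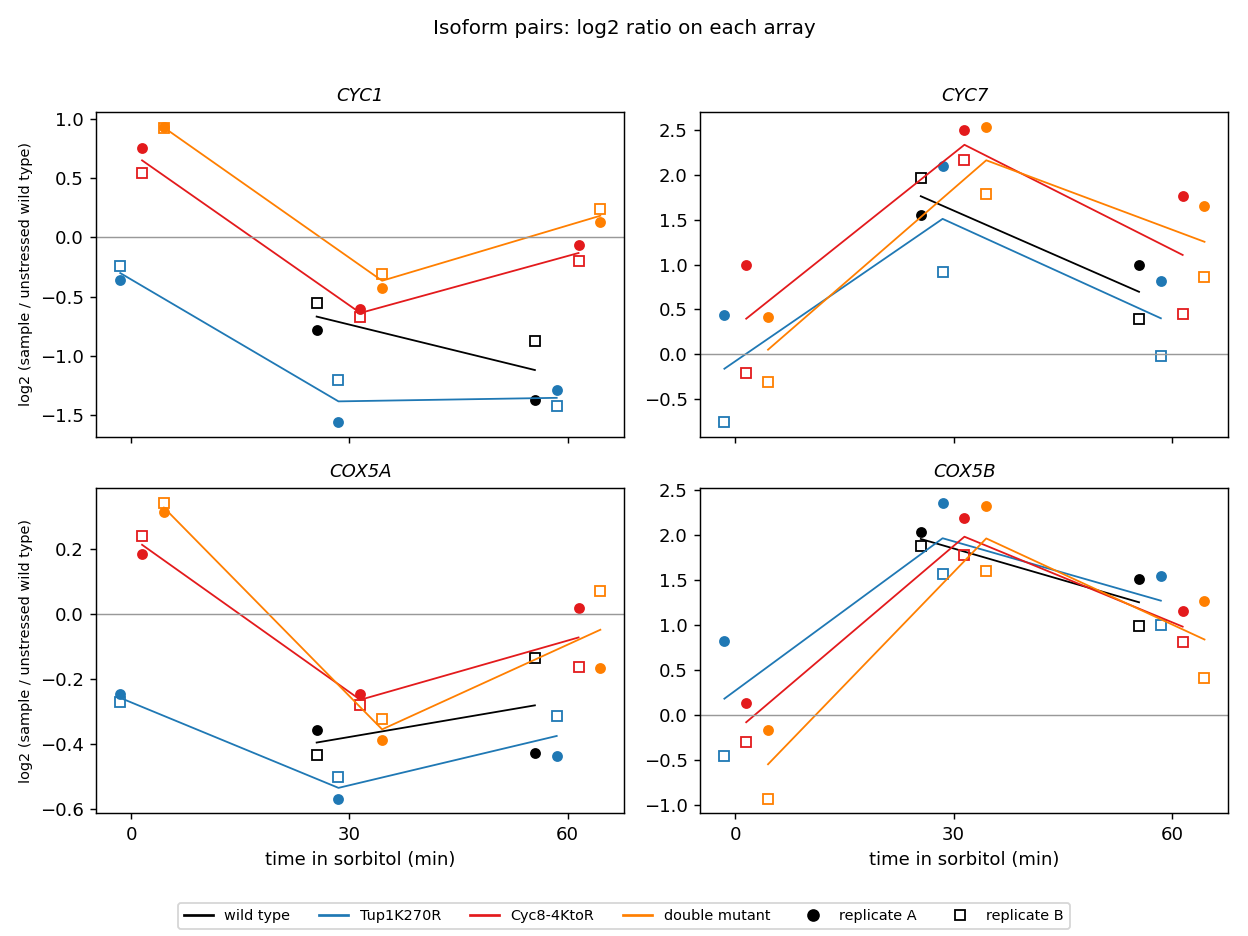
Log2 ratio to unstressed wild type of the aerobic and hypoxic genes CYC1 and CYC7, and COX5A and COX5B, against time in sorbitol (min), with 1 point per array and strains by colour. At 30 min the 8 arrays of CYC7 (0.92 to 2.54) and COX5B (1.57 to 2.35) lie above 0 and those of CYC1 (-1.56 to -0.30) and COX5A (-0.57 to -0.25) below it.

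Among the 9 oxidase assembly factors, 5 rose and 2 fell at 30 min, where 40.7% of all probes rose and 39.1% fell. The copper-related factors moved apart. COX19, an intermembrane-space protein needed for oxidase assembly, lay between 0.66 and 1.00 on the 8 arrays at 30 min (median 0.91) and between 0.56 and 0.99 at 60 min (median 0.70). COX17, the copper chaperone for the oxidase, lay between -0.73 and -0.51 at 30 min (median -0.60) and between -0.08 and 0.50 at 60 min (median 0.14). COX19 rose by 0.77 (SE 0.06, adjusted p = 2.49e-08) and was still 0.63 higher at 60 min. COX17 fell by 0.57 (SE 0.08, adjusted p = 7.35e-06) and then rose by 0.78. The heme A pathway also split: COX15 rose by 0.69 and COX10 fell by 0.41. COX18, which helps insert Cox2 into the inner membrane, rose by 0.20 at 30 min and then fell by 0.78, to 0.59 below unstressed.

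Of the 13 ATP synthase subunits, 7 fell at 30 min and 2 rose, where 39.1% of all probes fell and 40.7% rose. ATP19, a small membrane subunit, had the largest fall of all 51 genes. It was at -1.60 and -1.43 in wild type, -1.78 and -1.79 in Tup1K270R, -1.55 and -1.54 in Cyc8-4KtoR, and -1.43 and -1.41 in the double mutant, against -0.30 to 0.33 on the unstressed mutant arrays. The 2 cultures of each strain lay close together, and the change was -1.57 (SE 0.05, 0.337-fold, adjusted p = 4.03e-12). ATP20 and ATP14, also small subunits of the membrane part and the stalk, fell by 0.89 and 0.83. The catalytic core moved little: ATP1 (alpha) was at 0.01 (adjusted p = 0.889), ATP2 (beta) was 0.24 higher (-0.09 with median centring), and ATP3 (gamma) fell by 0.29.

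Between 30 and 60 min 7 of these subunits rose and 3 fell, where 34.5% of all probes rose and 40.3% fell. ATP19 rose by 1.18 (SE 0.06, adjusted p = 2.24e-10), ATP20 by 0.97 and ATP14 by 0.68, all in 8 of 8 cultures. ATP19 was then still 0.39 below unstressed, and ATP20 was at 0.08 (adjusted p = 0.488). ATP16, the delta subunit of the central stalk, did the opposite and fell by 0.48.

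**Figure D3:**
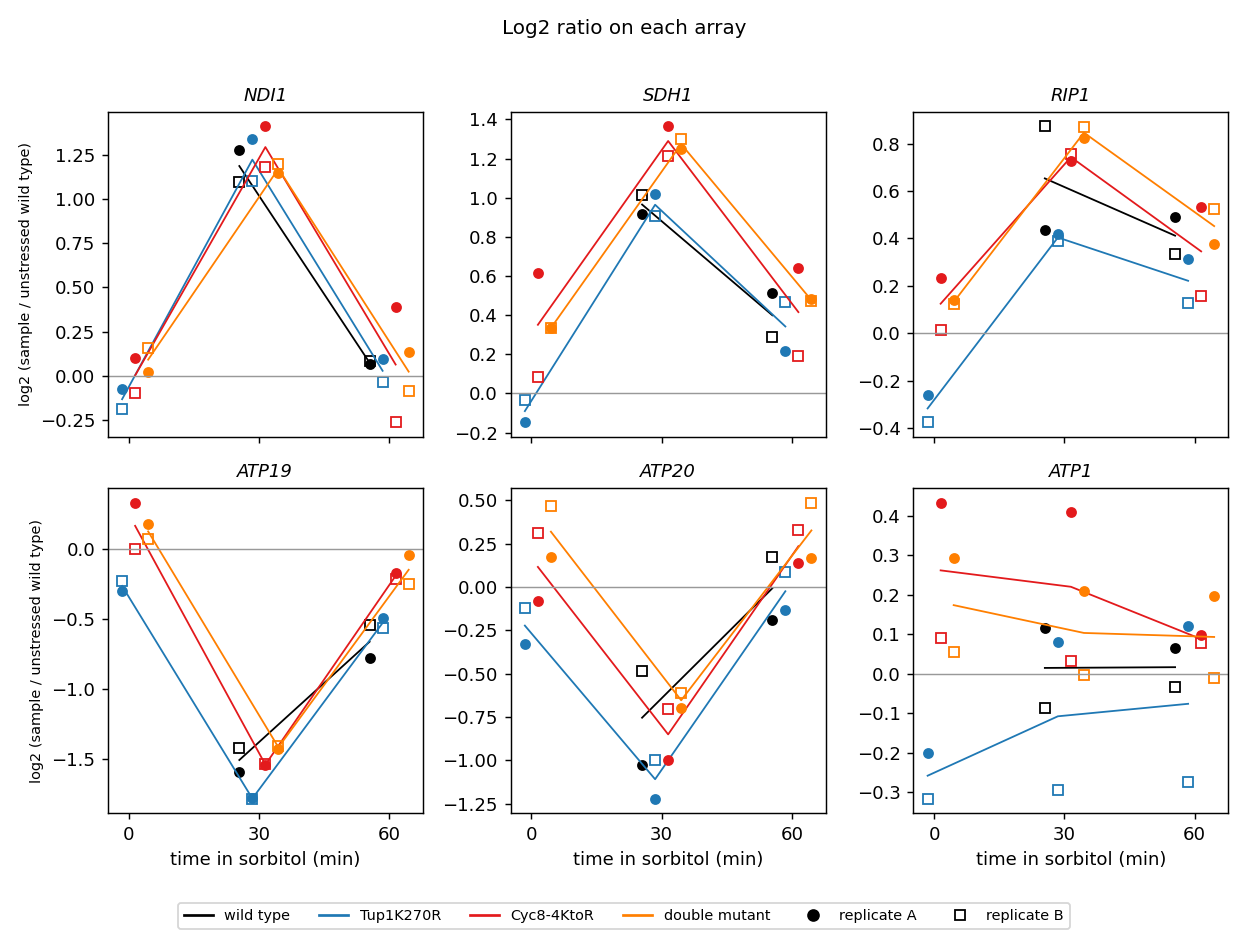
Log2 ratio to unstressed wild type of NDI1, SDH1, RIP1, ATP19, ATP20 and ATP1 against time in sorbitol (min), with 1 point per array (filled for culture A, open for B; points are offset sideways by strain), lines through the means of the 2 cultures and strains by colour. NDI1 and SDH1 are highest at 30 min, ATP19 is lowest at 30 min (-1.79 to -1.41), and ATP1 lies between -0.32 and 0.43 at all times; unstressed wild type is the reference and has no point.

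ATP22, needed to translate the mitochondrial ATP6 message, stood out among the 6 assembly and expression factors. It lay between 0.67 and 1.13 on the 8 arrays at 30 min and between -0.20 and 0.38 at 60 min. It rose by 0.89 (SE 0.09, adjusted p = 3.29e-07) and fell by 0.83, back to 0.06 (adjusted p = 0.587). ATP10 rose by 0.23 at 30 min. ATP11 and ATP12, the chaperones for the beta and alpha subunits, fell by 0.35 and 0.23, while ATP23 and ATP25 were at 0.05 and 0.01 and did not pass.

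From 30 to 60 min 10 of the 51 genes rose and 22 fell, against 34.5% and 40.3% of all probes. In wild type alone 5 rose and 14 fell, against 23.4% and 25.7% of all probes. At 60 min, 10 genes remained above and 17 below the unstressed level over the 4 strains (31.3% and 29.8% of all probes). Wild type alone had 8 above and 15 below (24.1% and 22.2% of all probes). With the deposited log ratios 1 rose and 4 fell in wild type at 60 min, and 3 rose and 11 fell over the 4 strains. Over all probes 774 passed in place of 2842, and 1864 in place of 3748. Between 30 and 60 min 2 genes passed in wild type and 20 over the 4 strains. Over all probes these were 839 in place of 3011, and 3036 in place of 4583. With the times of double mutant B exchanged, 21 genes passed between 30 and 60 min over the 4 strains in place of 32, and none of 19 passed in wild type. Over all probes 3510 then passed over the 4 strains in place of 4583, and 0 in wild type in place of 3011. The wild-type changes themselves do not use the double mutant arrays, which enter that test only through the spread that all groups share.

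The mutants were then compared with wild type at each time. For the difference between each mutant's own 30 or 60 min response and that of wild type, 0 of 51 genes passed in any of the 6 tests by limma, with 1 to 4 genes per test at an unadjusted p under 0.05 where 44 to 481 of 6129 probes were. Differences in level passed for CYC1 in both strains with mutant Cyc8, unstressed and at 60 min, and for other genes only in the unstressed double mutant. Calls before stress and later are not on one footing, since unstressed wild type is the reference itself and the median SE of the 51 differences was 0.10 unstressed and 0.15 at 30 and 60 min.

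In Tup1K270R, 0 of the 51 genes passed at any time, and 0% of all probes did. At an unadjusted p under 0.05, 16 genes were lower unstressed, 9 lower at 30 min and 0 differed at 60 min, where 243, 196 and 66 of 6129 probes did. The medians of the 51 were -0.15, -0.12 and -0.04. In Cyc8-4KtoR, CYC1 was the 1 gene that passed unstressed (0.294% of all probes passed), and it was the 1 gene that passed at 60 min (0.0489%). At 30 min 0 passed (0.0163%). At an unadjusted p under 0.05, 14, 1 and 12 genes were higher unstressed, at 30 and at 60 min, where 397, 226 and 336 of 6129 probes differed, and the medians of the 51 were 0.16, 0.09 and 0.21.

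In the double mutant, 6 genes were higher before stress and none lower (1.52% of all probes passed in either direction). They were CYC1, the bc1 subunit QCR9, the oxidase subunit COX5A, the assembly factor COX19, and the ATP synthase subunits ATP14 and ATP17. QCR9 was at 0.45 and 0.53 (mean 0.49), COX19 at 0.30 and 0.57 (0.43), ATP17 at 0.34 and 0.34, ATP14 at 0.30 and 0.38 (0.34), and COX5A at 0.31 and 0.34 (0.33). Every value lay above 0 in both cultures. At 30 min 0 passed (0.0489%), and at 60 min CYC1 was the 1 that passed (0.0489%). At an unadjusted p under 0.05, 20, 5 and 13 genes were higher at the 3 times, where 823, 411 and 589 of 6129 probes differed, and the medians of the 51 were 0.21, 0.12 and 0.20. With the deposited log ratios the calls of the mutants against wild type at 0 and 60 min were lost. Over all probes 0 then passed, in place of 111 and 6. Without either unstressed double mutant array there were 2 unstressed calls in place of 7. All 6 calls also rest on the direction of the unstressed double mutant B array: with its sign turned none passed, and the means were 0.0014 for ATP17, 0.0081 for CYC1, -0.039 for QCR9, -0.14 for COX19, -0.040 for ATP14 and -0.015 for COX5A.

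CYC1 separated the strains most. Unstressed, it was at -0.36 and -0.24 in Tup1K270R, 0.76 and 0.54 in Cyc8-4KtoR and 0.94 and 0.92 in the double mutant, with wild type B at -0.20 against wild type A. At 60 min it was at -1.37 and -0.87 in wild type, -1.29 and -1.42 in Tup1K270R, -0.06 and -0.20 in Cyc8-4KtoR, and 0.13 and 0.24 in the double mutant. Both strains with mutant Cyc8 thus lay above wild type and Tup1K270R at both times, with no overlap of arrays. All CYC1 calls against wild type rest on the direction of the unstressed double mutant B array as titled. With its sign turned none passed, unstressed or at 60 min, in either strain. The Cyc8-4KtoR values do not use that array, which enters their test through the spread that all groups share. Against wild type, the difference unstressed was 0.65 in Cyc8-4KtoR (adjusted p = 0.0205) and 0.93 in the double mutant (adjusted p = 0.00162). At 60 min it was 0.99 (adjusted p = 0.0326) and 1.31 (adjusted p = 0.00434), and neither passed without wild type A or without either double mutant array at that time. CYC1 was also the 1 gene past the study's cutoff of 0.65 in both cultures at 30 min, at 0.78 and 0.65 below wild type in Tup1K270R (unadjusted p = 0.000372, adjusted p = 1).

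Cyc8-4KtoR and the double mutant were also compared directly with Tup1K270R, a contrast chosen after the values had been seen. Within a letter this difference does not involve the reference culture. Averaged over the 3 times, 26 of 51 genes were higher in the strains with mutant Cyc8 and 0 were lower, while 5.4% of all probes were higher. The median difference was 0.32 for these genes and 0.00 for all probes. At single times 12 genes were higher unstressed (1.08% of all probes), 2 at 30 min (0.848%) and 4 at 60 min (0.62%). ATP17 and CYC1 passed at each time. The counts at single times rested on few arrays, at 1 to 14 genes unstressed, 0 to 5 at 30 min and 1 to 7 at 60 min when 1 array was left out, against 21 to 27 for the mean of the 3 times. That mean counted the 3 times as separate arrays, though they came from the same 2 isolates per strain. Its median SE was 0.07, against 0.13 at single times, and does not measure the spread between isolates. Cyc8-4KtoR alone was higher in 17 genes (2.86%) and the double mutant alone in 24 (4.72%), and between these strains 0 of 51 differed, with 3 at an unadjusted p under 0.05 and 5 of 6129 probes past the test.

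Of the 36 genes for enzymes, cytochrome c and structural subunits, 25 were higher, all 36 lay above 0 and the median was 0.36. Of the 15 assembly and expression factors, COX19 alone passed, 7 lay above 0 and the median was -0.03. By complex, 7 of 9 bc1 genes, 6 of 8 oxidase subunits, 10 of 13 ATP synthase subunits, CYC1 and 1 of 4 succinate dehydrogenase genes were higher, and NDI1 was not (0.07, adjusted p = 0.705). The difference between the 36 and the 15 genes was not tested. The 36 were the brighter genes, with 23 in the top quartile of brightness over all probes. In that quartile 5.61% of all probes were higher with a median of 0.00. From bright to dim, the quartiles below it held 6, 6 and 1 of the 36. The medians of the 36 by quartile lay between 0.34 and 0.39, that of the lowest being the value of 1 gene.

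**Figure D4:**
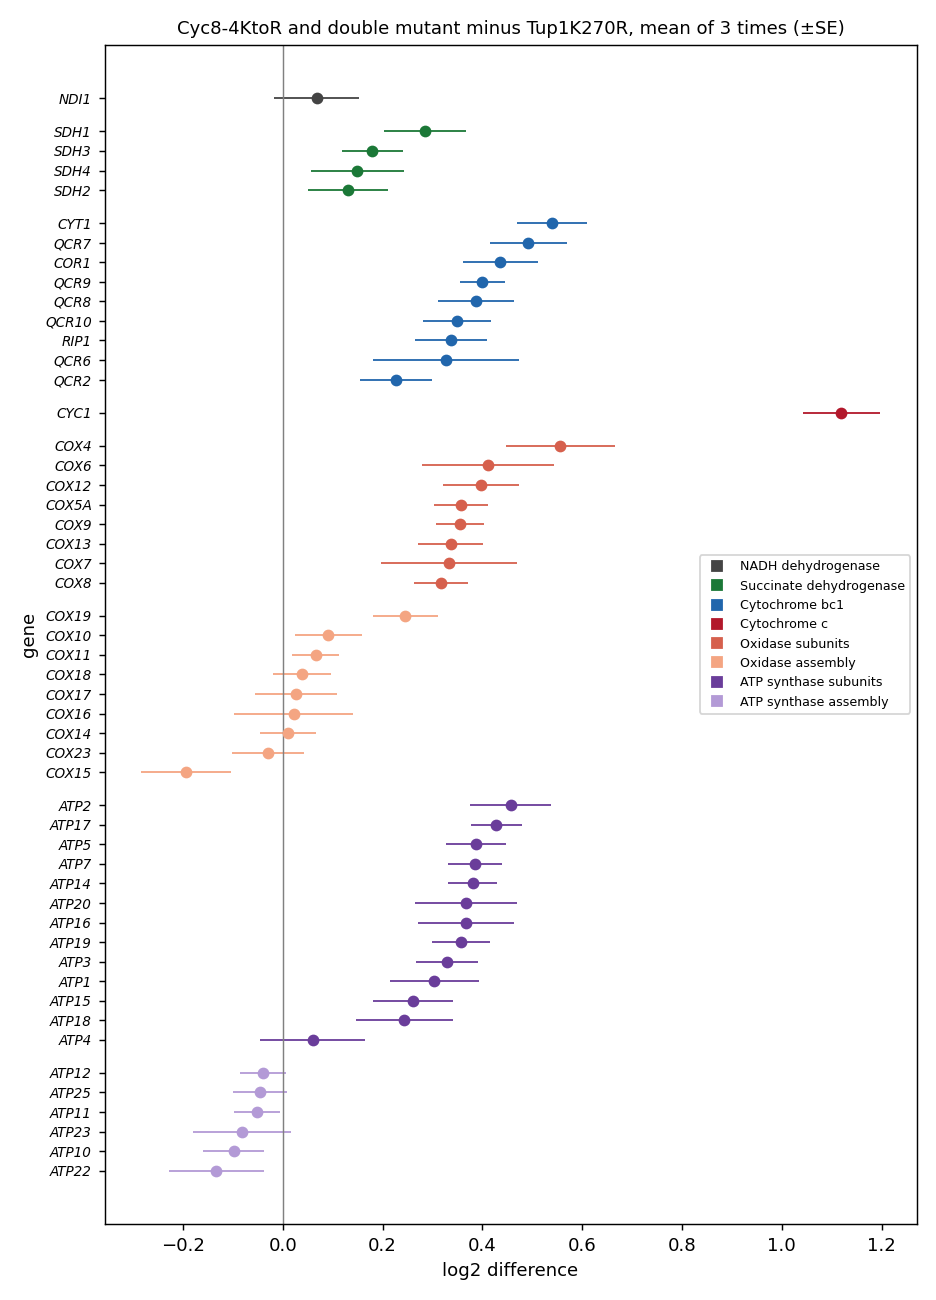
Difference in log2 level between Cyc8-4KtoR with the double mutant and Tup1K270R for each of the 51 genes (horizontal axis), grouped by complex; points are fitted means over the 3 times and bars 1 SE. All 36 enzymes, cytochrome c and subunits lie to the right of 0, CYC1 farthest at 1.12, and 7 of the 15 assembly and expression factors lie to the right of it.

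In 30 of the 51 genes all 6 differences, of 3 times and 2 letters, were above 0. The share of all probes with this pattern was not counted, and the 6 come from the same 2 isolates per strain. CYC1 differed by 0.72 to 1.44 (mean 1.12, SE 0.08, 2.17-fold, adjusted p = 2.65e-06). Its difference was 1.09 unstressed, 0.88 at 30 min and 1.38 at 60 min. CYT1 differed by 0.40 to 0.67 (mean 0.54, adjusted p = 0.00027), QCR9 by 0.11 to 0.70 (mean 0.40) and RIP1 by 0.14 to 0.45 (mean 0.34). ATP17, a small membrane subunit of the ATP synthase, differed by 0.37 to 0.55 (mean 0.43, adjusted p = 0.000199), ATP14 by 0.20 to 0.49 (mean 0.38) and COX5A by 0.20 to 0.56 (mean 0.36). ATP1, which did not pass the test for a change in sorbitol, differed by 0.03 to 0.56 (mean 0.30, adjusted p = 0.0438).

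Several measurements lay beside this difference. In 5 of the 6 comparisons of time and letter the 3 strains shared a slide, and over those the median of the 51 genes was 0.32. A list of 11 osmostress genes was also higher before stress, with means of 0.61 and 0.18 in Cyc8-4KtoR and 0.47 and 0.02 in the double mutant against 0.02 and -0.46 in Tup1K270R, and its part in the result was not tested. The CYC8 probe lay between 0.65 and 0.91 in Cyc8-4KtoR A and between 0.80 and 0.94 in Cyc8-4KtoR B. In the double mutant it lay between 0.305 and 0.41 in A and between 1.09 and 1.44 in B. Both strains lay above Tup1K270R in A and overlapped it in B (0.90 to 1.33). The median difference of the 51 genes over the 3 times was 0.31 in A and 0.29 in B. A part of the CYC8 level in this difference was not tested. With the deposited log ratios 3 genes passed (COX4, COX9 and CYC1), with medians of 0.32 for the 36 genes and -0.02 for the 15. Over all probes 111 then passed in either direction, in place of 606. With the double mutant B arrays exchanged in time, or its unstressed array turned in sign, 16 passed (216 and 223 of all probes).

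Genes around the chain were followed with a list of 50 others, of which 48 had a tested probe. At 30 min 29 rose and 10 fell (40.7% and 39.1% of all probes), and from 30 to 60 min 8 rose and 34 fell (34.5% and 40.3%). At 60 min 15 lay above and 23 below the unstressed level (31.3% and 29.8%). All 4 genes of other routes of electron entry rose at 30 min: CYB2, the lactate dehydrogenase that feeds cytochrome c, by 2.85, NDE2, an external NADH dehydrogenase, by 2.27, GUT2, the mitochondrial glycerol-3-phosphate dehydrogenase, by 1.47, and DLD1, a D-lactate dehydrogenase, by 0.90. Of 8 ubiquinone synthesis genes 5 rose and 2 fell, COQ4 rising by 1.30.

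HAP4 encodes the limiting, activating subunit of the Hap2/3/4/5 complex. At 30 min it was at -0.92 and -0.96 in wild type, -1.70 and -1.83 in Tup1K270R, 0.17 and -0.29 in Cyc8-4KtoR, and -0.02 and -0.33 in the double mutant. Unstressed it was at -0.50 and -0.58 in Tup1K270R, 1.05 and 0.34 in Cyc8-4KtoR, and 1.00 and 0.67 in the double mutant. The strains with mutant Cyc8 lay above Tup1K270R at both times without overlap. HAP4 fell by 0.98 at 30 min (SE 0.14, adjusted p = 1.71e-05) and rose by 1.02 by 60 min.

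In the direct comparison HAP4 was 1.31 higher unstressed (adjusted p = 0.0253) and 1.65 higher at 30 min (adjusted p = 0.00676), and 0.40 at 60 min (adjusted p = 0.612), with a mean of 1.12. INH1, the inhibitor of the ATP synthase in its hydrolytic direction, was 0.85 higher over the 3 times (SE 0.08, adjusted p = 4.8e-05). HAP1, named for a heme-responsive transcription factor whose activity in these strains was not measured, was 0.50 lower (adjusted p = 0.0031). Of the 48 genes, 5 were higher and 4 lower in this comparison, against 5.4% and 4.49% of all probes, and their median was -0.03. CYC7 and COX5B were at 0.64 and -0.28 (adjusted p = 0.202 and 0.489).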

How the data were processed

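Per the file headers, each scanner file came from Agilent Feature Extraction 10.5.1.1 with protocol GE2-v5_95_Feb07, and the deposited columns hold spot intensities for Cy3 and Cy5, the background-subtracted signal of each channel and a log10 ratio. The authors also deposited a table of log2 ratios, sample over reference. The deposited ratio had only its Cy3 channel corrected for a position trend on 10 arrays, both on 2 and neither on 11, so the background-subtracted signals were taken instead, normalized by loess within each array and turned to log2 sample over reference. The 2 spots of a probe were averaged.

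All 22 arrays entered 1 fit (limma 3.58.1, R 4.3.3, lmFit and eBayes) with the 11 groups as terms, and p-values were adjusted by Benjamini-Hochberg over 6129 probes at a threshold of 0.05. With 2 arrays a group, p-values rest on the spread between letters A and B, where isolate, dye and reference culture cannot be told apart. The fit also counted the times of an isolate as separate arrays, and the number of arrays limits the precision. Fits were tested on simulated data. Members, gene lists and tests were chosen with earlier results of these data known. Named genes were the most and least changed of each complex, those past the test against wild type, those past 0.65 (the cutoff of the study's methods) in both cultures, and a preset few; other names were chosen after their values were seen. Probes were named through RefSeq R64, which matched 5756 of 6256. No sequences are shown, and a planned search of promoters was not run. Alternatives covered the deposited ratios and table, background and scaling, blocks for slide and culture letter, label readings and leaving out arrays.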

Additional observations from a re-analysis of the deposited data

Results flagged for a closer look

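Groups of 2 arrays are too small for the test of single outlying arrays used here, which was not run. The results singled out are those in which the mutant strains differed under the same contrast by a test of the difference itself, all from the direct comparison of Cyc8-4KtoR and the double mutant with Tup1K270R. In it 12 of the 51 genes were higher unstressed, 2 at 30 min, 4 at 60 min and 26 over the 3 times together. CYC1 was higher by 1.09 unstressed, 0.88 at 30 min, 1.38 at 60 min and 1.12 over the 3 times, on the log2 scale. The contrast was chosen after the values had been seen. The 26 rest on the same 2 isolates per strain, with the 3 times counted as separate arrays.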

How the results depend on the processing

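Counts below are of the 51 genes past the test. With the deposited log ratios, and with the deposited log2 table, 14 passed in wild type at 30 min (34 in the main setting), 5 at 60 min (23) and 2 from 30 to 60 min (19), while over the 4 strains 14 passed at 60 min (27) and 20 from 30 to 60 min (32). For the strains with mutant Cyc8 against Tup1K270R both gave 0 unstressed (12), 0 at 30 min (2), 1 at 60 min (4) and 3 over the 3 times (26), and for the mutants against wild type 0 unstressed (7) and 0 at 60 min (2). With the deposited log ratios calls over all probes also fell. They were 2319 (4133), 774 (2842) and 839 (3011) in wild type, and 111 (606) in the direct comparison over the 3 times. Normexp on median intensities gave 0, 0 and 1 at the single times of the direct comparison, and 0 and 0 against wild type unstressed and at 60 min. Median centring gave 2 in the direct comparison at 60 min and 1 against wild type at 60 min, and turned ATP2 at 30 min to -0.091.

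Arrays of a letter share a dye and a reference culture, and the letters were not taken to pair the cultures: over 55 pairs of groups the correlation of deviations was 0.089 to 0.679 (median 0.457), over 0.1 in 54. With a replicate block the direct comparison had 24, 15 and 19 genes at the single times and the mutants 19 unstressed and 4 at 60 min; no other count moved by over 1.5 times, and the mutants' own responses against wild type still had 0 genes past the test in each of 6 comparisons. With slide as a random block the direct comparison had 20, 12 and 10 genes, and as a fixed block 21, 12 and 10, with 16 and 1 against wild type unstressed and at 60 min.

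With the times of double mutant B exchanged, 12 genes passed in wild type at 60 min, 0 from 30 to 60 min, and 21 over the 4 strains from 30 to 60 min. Over all probes 1580 (2842 in the main setting), 0 (3011) and 3510 (4583) passed in these comparisons. The direct comparison then had 1, 0 and 1 at the single times and 16 over the 3 times, and the mutants 1 unstressed and 0 at 60 min. With the unstressed double mutant B array turned in sign these were 0, 0, 0 and 16, and 0 and 0, and QCR9, COX19, ATP14 and COX5A in that mutant were at -0.039, -0.14, -0.040 and -0.015. The estimates for wild type, Tup1K270R and Cyc8-4KtoR do not use the double mutant arrays. Their calls changed only through the spread that all groups share in the fit. The study's cutoff of 0.65 in both cultures gave 7 genes in wild type at 30 min, 1 at 60 min and 7 from 30 to 60 min, 11, 1 and 7 over the 4 strains, 1 in each direct comparison, and 1 for the mutants unstressed and at 30 min.

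Leaving out 1 array at a time gave 25 to 35, 8 to 23 and 11 to 22 genes in wild type (fewest without wild type B at 30 min, A at 60 min and B at 30 min), 36 to 40, 24 to 29 and 31 to 35 over the 4 strains, and 1 to 14, 0 to 5, 1 to 7 and 21 to 27 in the direct comparison. The direct comparison had 1 gene unstressed without Tup1K270R A, 0 at 30 min without Tup1K270R A, and 1 at 60 min without either Tup1K270R array, Cyc8-4KtoR A or double mutant B at 60 min or either double mutant array at 30 min. The mutants had 2 to 7, 0 to 0 and 0 to 2 genes. Of the values of single named genes under the alternatives with a test, 2600 kept direction and call, 497 kept direction but lost the call and 5 reversed. Most of these values come from fits without 1 array, and the genes were chosen from calls in the main setting. Under the deposited log ratios 33 values kept direction and call, and 61 kept direction but lost the call. With 2 arrays a group, a lone remaining array is taken to vary like the other groups.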
